A study of Mus musculus with 20 samples.

Results

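The retina of CrxRip/Rip mice was compared with the retina of Nrl-/- mice at postnatal day 2 (P2), in 4 of the 20 samples of a study that sequenced RNA from whole mouse retina. The study covered 5 genotypes at 2 ages, P2 and postnatal day 21 (P21). All 566 genes of the P2 table entered the comparison. The samples were taken by their labelled genotype and age.

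The 2 CrxRip/Rip samples came from mice homozygous for Rip, a dominant mutant allele of the photoreceptor homeobox gene Crx. The 2 Nrl-/- samples came from mice without the leucine zipper factor Nrl. Wild type, CrxRip/+ and Crx-/- retinas, with 2 samples each, stand behind them as context. Each sample held 2 frozen retinas, and all were labelled C57BL/6J. The labels do not say whether the samples of a genotype came from separate litters, so the p-values below measure only the spread between samples. That spread was pooled over the genotypes in all 10 P2 samples and drawn toward that of other genes.

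Crx drives genes of both photoreceptor types and is needed for the outer segment and the phototransduction cascade. Nrl acts later and turns postmitotic precursors into rods, together with its target Nr2e3, an orphan nuclear receptor that keeps cone genes silent in rods. In the mature Nrl-/- retina the cells that would have become rods resemble cones of the short-wavelength type. At P2 rods are still being born and outer segments have not formed. The comparison therefore sets a retina with a dominant fault in the shared photoreceptor programme beside a retina in which the rod choice is lost. Whole retina was measured, so fewer cells of a type and less RNA per cell cannot be told apart.

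Values are FPKM, fragments scaled by transcript length and by the mapped fragments of the library, deposited with 1 decimal. Differences are CrxRip/Rip minus Nrl-/- on the scale log2(FPKM + 1), which understates the change of genes near 0. A gene was called at a limma adjusted p under 0.05, with Benjamini-Hochberg adjustment over the 566 genes. The authors deposited only genes that had passed a threshold in at least 1 of their own comparisons. Of the 566 genes, 342 had passed it in the authors' deposited comparison of CrxRip/Rip with Nrl-/-, and 390 had passed it in no comparison without Nrl-/-. The share of false calls in a table chosen in this way is not known.

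The targeted gene was read first. Nrl had 36.5 and 43.2 FPKM in the CrxRip/Rip samples, 0.1 and 0.1 FPKM in the Nrl-/- samples, 63.0 and 73.1 FPKM in CrxRip/+, 73.0 and 81.6 FPKM in Crx-/-, and 69.4 and 81.0 FPKM in wild type. The Nrl-/- label thus held in both of its samples, and CrxRip/Rip stood between Nrl-/- and the other 3 genotypes without overlap. The mutation of the Rip allele is not visible in FPKM, and Crx itself was not analysed here.

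Most of the table was higher in CrxRip/Rip. A total of 345 genes were called higher, which is 61% of the table, and 160 were called lower, which is 28.3%, while 61 did not pass the test. The median difference over all 566 genes was 0.70. The Nrl-/- columns were low at the median gene, which had 4.1 and 3.9 FPKM in CrxRip/Rip, against 2.6 and 2.6 FPKM in Nrl-/-, and 4.5 and 4.4 FPKM in wild type. Summed over the table, FPKM reached 4542.2 and 4552.4 in CrxRip/Rip, against 4300.4 and 4168.3 in Nrl-/-, and 5449.5 and 5777.3 in wild type. The medians lay further apart than the sums.

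**Figure D1:**
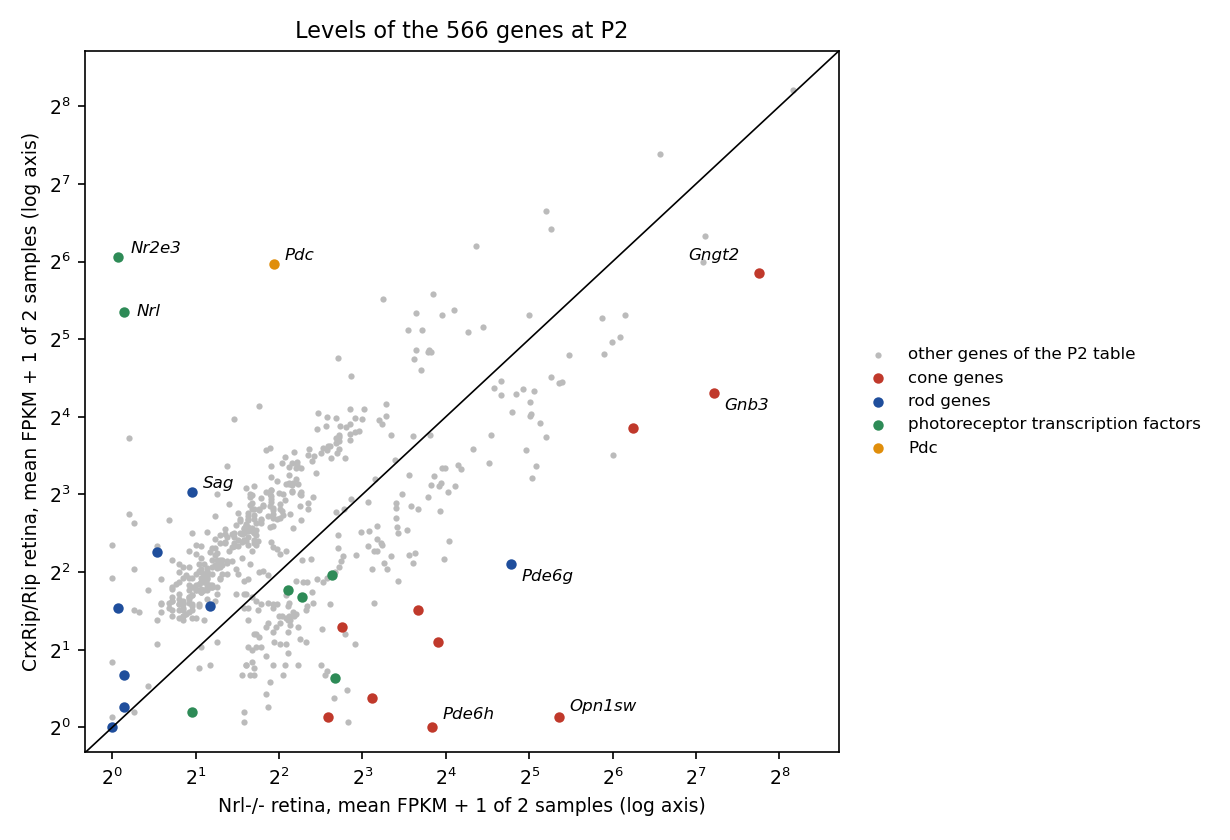
Mean FPKM + 1 of the 2 CrxRip/Rip samples (vertical, log axis) against the mean FPKM + 1 of the 2 Nrl-/- samples (horizontal, log axis) for all 566 genes of the P2 table, with the line of equal level. The cloud of other genes lies mostly above the line, Nrl, Nr2e3 and Pdc lie far above it, and the 10 cone genes lie below it, with Opn1sw at 0.1 FPKM in CrxRip/Rip.

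How much of the table was called higher depended on the scaling. The authors' own fold changes of CrxRip/Rip against Nrl-/- carry an offset of -0.16 relative to the ratio of mean FPKM (SD 0.04 over 191 genes). For the authors' scaling, each genotype was shifted by its offset against wild type, -0.015 for CrxRip/Rip and 0.176 for Nrl-/- in log2. With it 332 genes were called higher and 168 lower, with a median of 0.58. Under median-of-ratios scaling, which sets the typical gene equal between samples, 155 genes were called higher and 199 lower, with a median of 0.08. That scaling assumes most genes to be unchanged, which a table selected for change does not grant. Below, a call is given on the deposited scale, and a scaling is named where it ends a call or turns a sign.

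The side on which each genotype left the rest was counted against the other 8 P2 samples. Of the 345 genes called higher in CrxRip/Rip, 294 had both Nrl-/- samples below all 8 others while CrxRip/Rip lay within the range of the rest. For 29 genes Nrl-/- lay below and CrxRip/Rip above all others, and for 11 CrxRip/Rip alone lay above. Of the 160 genes called lower, 69 had Nrl-/- alone above the others, 39 had CrxRip/Rip alone below, and 32 had both. On the deposited scale the higher calls were thus mostly genes that were low in Nrl-/-, and the lower calls were shared between both genotypes. These positions were not recounted under another scaling, although the Nrl-/- columns were low at the median gene. In addition, 390 genes had entered the table only through comparisons that include Nrl-/-. The counts therefore cannot tell a change of single genes from the column level or the choice of genes. No test was made of these counts.

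The photoreceptor lists differed among themselves. The 7 photoreceptor lists held 46 genes of the table, of which 25 were called lower in CrxRip/Rip, 13 higher and 8 neither, beside 28.3% lower and 61% higher over all genes. Under median-of-ratios scaling 31 were called lower and 9 higher, beside 199 lower and 155 higher of the 566 genes. The 10 cone genes had a median difference of -2.58 and the 8 rod genes a median of 0.46, beside 0.70 over all genes. The lists were chosen with earlier results of these data known, so their counts are a description.

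Among the transcription factors, both rod factors were higher in CrxRip/Rip than in Nrl-/-. The other 5 of the 7 in the table were called lower, beside 28.3% of all genes. Nr2e3 had 61.4 and 70.2 FPKM in CrxRip/Rip, against 0.1 and 0.0 FPKM in Nrl-/-, and 120.3 and 143.8 FPKM in wild type. Both CrxRip/Rip samples were far above Nrl-/- and below wild type. The difference was 5.99 ± 0.17 (SE; limma, adjusted p = 7.58e-08), the largest rise of the table, and that of Nrl was 5.21 ± 0.14 (SE; limma, adjusted p = 7.58e-08). Rod-factor RNA was therefore present in CrxRip/Rip at P2, in contrast to Nrl-/-. For Nrl this contrast was set in advance by the Nrl-/- genotype.

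The 5 lower factors were Sall3, Rxrg, Thrb, Samd7 and Ankrd33. Sall3, a zinc finger factor needed for cone gene expression, had 0.6 and 0.5 FPKM in CrxRip/Rip, against 4.8 and 5.9 FPKM in Nrl-/-, and 1.2 and 1.2 FPKM in wild type. Here CrxRip/Rip lay below and Nrl-/- above all other samples, with a difference of -2.03 ± 0.14 (SE; limma, adjusted p = 9.69e-06). Rxrg, a retinoid X receptor of cone precursors, had 3.2 and 2.6 FPKM in CrxRip/Rip, against 5.5 and 4.9 FPKM in Nrl-/-. Thrb, which encodes the thyroid hormone receptor of cones, had 2.1 and 2.3 FPKM in CrxRip/Rip, against 3.8 and 3.9 FPKM in Nrl-/-. The differences were -0.67 ± 0.11 for Rxrg and -0.60 ± 0.09 for Thrb (SE; limma, adjusted p = 0.000527 and 0.000293).

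Samd7, a photoreceptor partner of Polycomb repression, was low in both genotypes, with 0.1 and 0.2 FPKM in CrxRip/Rip and 1.1 and 0.8 FPKM in Nrl-/-, beside 20.7 and 27.0 FPKM in wild type. The CrxRip/Rip samples were the lower pair, with a difference of -0.76 ± 0.17 (SE; limma, adjusted p = 0.00288). Ankrd33, a photoreceptor repressor that restrains Crx activity, had 2.6 and 2.2 FPKM in CrxRip/Rip, against 3.2 and 3.4 FPKM in Nrl-/-, a difference of -0.34 ± 0.09 (SE; limma, adjusted p = 0.00533). Otx2, Rorb and Prdm1, which act upstream of Nrl or beside it, were not analysed here.

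All 10 cone genes in the table were called lower in CrxRip/Rip. Their summed level was 85.6 and 102.6 FPKM in CrxRip/Rip, against 536.1 and 534.2 FPKM in Nrl-/-, and 398.2 and 442.7 FPKM in wild type. The count was 10 under every scaling and with any 1 sample left out. In none of the 10 did the samples of CrxRip/Rip and Nrl-/- overlap, which also held for 533 of the 566 genes.

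Opn1sw, the short-wavelength cone opsin, had 0.1 and 0.1 FPKM in CrxRip/Rip, against 39.5 and 40.5 FPKM in Nrl-/-, and 40.6 and 43.0 FPKM in wild type. The RNA was at the edge of the deposited precision in CrxRip/Rip, while the Nrl-/- samples stood just below wild type. The difference of -5.22 ± 0.11 was the largest fall of the table (SE; limma, adjusted p = 2.43e-08). Pde6h, the inhibitory subunit of cone phosphodiesterase, was listed at 0 in both CrxRip/Rip samples, against 14.3 and 12.2 FPKM in Nrl-/-, and 7.0 and 8.6 FPKM in wild type. Pde6c, the catalytic subunit, had 0.3 and 0.3 FPKM in CrxRip/Rip, against 7.1 and 8.2 FPKM in Nrl-/-, and 2.1 and 2.3 FPKM in wild type. For both subunits CrxRip/Rip lay below and Nrl-/- above every other P2 sample.

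The 3 subunits of the cone G protein transducin moved the same way from different levels. Gnat2, the alpha subunit, had 1.4 and 0.9 FPKM in CrxRip/Rip, against 13.5 and 14.6 FPKM in Nrl-/-, 12.2-fold lower by the means. Gnb3, the beta subunit, had 17.2 and 20.3 FPKM in CrxRip/Rip, against 152.0 and 142.3 FPKM in Nrl-/-, 7.85-fold lower. Gngt2, the gamma subunit, had 50.4 and 63.4 FPKM in CrxRip/Rip, against 216.7 and 214.4 FPKM in Nrl-/-, 3.79-fold lower. In CrxRip/Rip the alpha subunit stood near 1 FPKM, while the gamma subunit kept a high level. The adjusted p-values of the 3 ran between 1.12e-06 and 2.62e-05 (limma).

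The cone cyclic-nucleotide channel was lower as well. Cnga3, its alpha subunit, had 0.1 and 0.1 FPKM in CrxRip/Rip, against 4.3 and 5.7 FPKM in Nrl-/-. Cngb3, the beta subunit, had 1.4 and 1.5 FPKM in CrxRip/Rip, against 4.7 and 6.8 FPKM in Nrl-/-. The differences were -2.44 ± 0.12 for Cnga3 and -1.44 ± 0.14 for Cngb3 (SE; limma, adjusted p = 1.51e-06 and 3.12e-05). Of the 2 remaining members, Ccdc136 had 13.0 and 14.0 FPKM in CrxRip/Rip, against 72.1 and 78.0 FPKM in Nrl-/-. Otop3, a gene of the otopetrin proton channel family, had 1.7 and 2.0 FPKM in CrxRip/Rip, against 11.9 and 11.5 FPKM in Nrl-/-. Both were lower by 5.56-fold for Ccdc136 and 6.32-fold for Otop3.

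**Figure D2:**
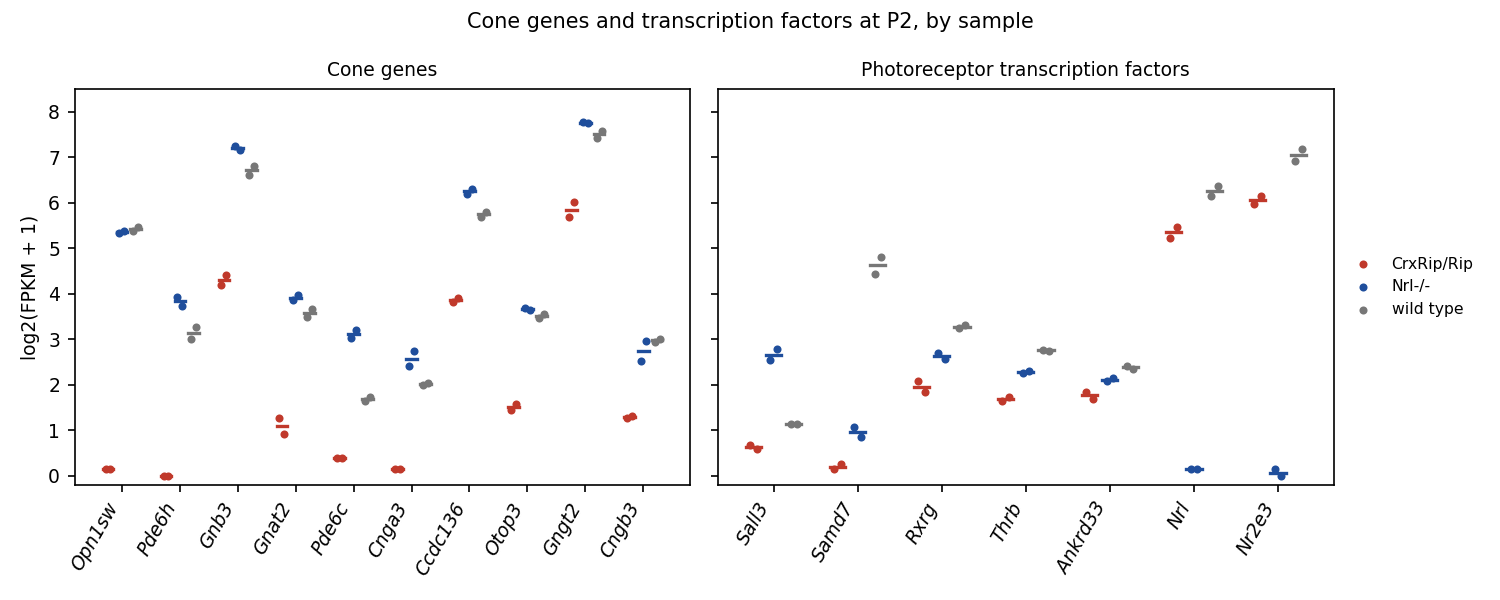
Level in log2(FPKM + 1) of the 10 cone genes (left) and the 7 photoreceptor transcription factors (right) in each P2 sample of CrxRip/Rip, Nrl-/- and wild type; points are samples and bars the mean of 2. In each of the 10 cone genes both CrxRip/Rip points lie below both Nrl-/- points, whereas for Nrl and Nr2e3 they lie far above them.

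The rod genes were split. Of the 8 in the table, 5 were called higher in CrxRip/Rip, 1 lower and 2 neither. Summed over the 8 genes, CrxRip/Rip had 14.9 and 23.0 FPKM, against 28.9 and 30.0 FPKM in Nrl-/-, and 121.9 and 153.4 FPKM in wild type. Nearly all of the Nrl-/- sum came from Pde6g, the 1 gene called lower. The lower sum in CrxRip/Rip therefore does not stand for the other rod genes. The share of higher calls was near the 61% of the whole table, so the count says nothing particular to rod genes. Under median-of-ratios scaling 3 of the 8 were called higher, beside 155 of the 566 genes.

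Sag, which encodes rod arrestin, had 5.2 and 9.2 FPKM in CrxRip/Rip, against 1.1 and 0.8 FPKM in Nrl-/-, and 46.4 and 56.8 FPKM in wild type. Both CrxRip/Rip samples were above Nrl-/- and far below wild type, with a difference of 2.03 ± 0.22 from Nrl-/- (SE; limma, adjusted p = 5.54e-05). Gngt1, the gamma subunit of rod transducin, had 2.8 and 4.8 FPKM in CrxRip/Rip, against 0.4 and 0.5 FPKM in Nrl-/-, and 11.0 and 13.9 FPKM in wild type. Pde6b, a catalytic subunit of rod phosphodiesterase, had 1.5 and 2.3 FPKM in CrxRip/Rip, against 0.1 and 0.0 FPKM in Nrl-/-, and 14.4 and 17.7 FPKM in wild type. In each of the 3 genes the second CrxRip/Rip sample was the higher one, and all 3 kept their call under the scalings tried.

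Nxnl1, the rod-derived cone viability factor, was close to the floor, with 0.5 and 0.7 FPKM in CrxRip/Rip and 0.1 and 0.1 FPKM in Nrl-/-. Its difference of 0.54 ± 0.16 (SE; limma, adjusted p = 0.0115) lost its call under median-of-ratios scaling (0.39) and without the second CrxRip/Rip sample (0.45). Reep6, a membrane-trafficking protein of rods, had 1.8 and 2.1 FPKM in CrxRip/Rip, against 1.3 and 1.2 FPKM in Nrl-/-. The difference of 0.39 ± 0.11 (SE; limma, adjusted p = 0.0102) changed sign under median-of-ratios scaling (-0.19), and leaving out the second CrxRip/Rip sample (0.32) or the second Nrl-/- sample (0.36) ended its call.

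Cnga1, the alpha subunit of the cyclic-nucleotide channel of rods, was listed at 0 in all 4 samples, beside 3.1 and 6.2 FPKM in wild type. No fold can be given between groups listed at 0.

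Pde6g, the inhibitory subunit of rod phosphodiesterase, went the other way. It had 2.9 and 3.7 FPKM in CrxRip/Rip, against 25.8 and 27.3 FPKM in Nrl-/-, and 30.3 and 38.8 FPKM in wild type. It was 8.05-fold lower in CrxRip/Rip, with a difference of -2.69 ± 0.18 (SE; limma, adjusted p = 7.85e-06), while its catalytic partner Pde6b was higher. The Nrl-/- samples stood near wild type for Pde6g and near 0 for Pde6b.

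Among genes that rods and cones share, Pdc stood apart. Pdc, which encodes phosducin, a binding partner of transducin beta and gamma subunits, had 54.1 and 68.9 FPKM in CrxRip/Rip, against 2.8 and 2.9 FPKM in Nrl-/-, and 129.4 and 155.5 FPKM in wild type. The CrxRip/Rip level was 21.6-fold that of Nrl-/-, with a difference of 4.01 ± 0.17 (SE; limma, adjusted p = 9.51e-07). Of the 7 shared phototransduction genes in the table, it was the only one called higher, with 5 called lower, beside 61% higher and 28.3% lower over all genes.

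The 5 lower genes were Rcvrn, Guca1a, Aipl1, Rgs9 and Kcnv2. Rcvrn, recoverin, a calcium sensor, had 0.2 and 0.4 FPKM in CrxRip/Rip, against 4.8 and 5.8 FPKM in Nrl-/-. Guca1a, which activates guanylate cyclase, had 0.0 and 0.1 FPKM in CrxRip/Rip, against 1.8 and 2.2 FPKM in Nrl-/-. Aipl1, a chaperone of phosphodiesterase, had 3.2 and 3.8 FPKM in CrxRip/Rip, against 15.3 and 14.2 FPKM in Nrl-/-. The groups were apart in all 3, with differences of -2.28 ± 0.17 for Rcvrn, -1.51 ± 0.14 for Guca1a and -1.81 ± 0.12 for Aipl1 (SE; limma, adjusted p between 7.75e-06 and 2.95e-05). Rgs9, which speeds transducin's shut-off, had 5.9 and 6.2 FPKM in CrxRip/Rip, against 12.1 and 11.3 FPKM in Nrl-/-. Kcnv2, a modifier subunit of photoreceptor potassium channels, had 0.6 and 0.9 FPKM in CrxRip/Rip, against 1.2 and 1.3 FPKM in Nrl-/-. Its call (-0.37; limma, adjusted p = 0.0323) was lost without the first CrxRip/Rip sample (-0.24) or either Nrl-/- sample (-0.40 and -0.34).

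The outer segment genes were divided between their members. Rom1, which builds disc rims together with peripherin, had 37.1 and 41.8 FPKM in CrxRip/Rip, against 12.3 and 10.7 FPKM in Nrl-/-, and 65.9 and 81.6 FPKM in wild type. Its partner Prph2 had 7.0 and 9.8 FPKM in CrxRip/Rip, against 14.2 and 12.9 FPKM in Nrl-/-, and 44.0 and 56.3 FPKM in wild type. One rim protein was thus higher and the other lower in CrxRip/Rip, with differences of 1.69 ± 0.17 for Rom1 and -0.65 ± 0.20 for Prph2 (SE; limma, adjusted p = 3.59e-05 and 0.0129). The Prph2 call was lost without the first CrxRip/Rip sample (-0.43) or the first Nrl-/- sample (-0.58). Rp1, a microtubule protein of the axoneme, had 5.7 and 9.5 FPKM in CrxRip/Rip, against 1.9 and 2.6 FPKM in Nrl-/-, a difference of 1.38 ± 0.23 (SE; limma, adjusted p = 0.000494). Cdhr1, a cadherin at the base of the outer segment, had 10.7 and 10.1 FPKM in CrxRip/Rip, against 58.2 and 68.4 FPKM in Nrl-/-, and was 6.09-fold lower.

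Abca4, the retinoid transporter of disc rims, and Rp1l1, a relative of Rp1, did not pass the test. Abca4 had 1.6 and 2.2 FPKM in CrxRip/Rip, which overlapped the 2.1 and 1.9 FPKM in Nrl-/-. Rp1l1 had 3.1 and 2.9 FPKM in CrxRip/Rip, against 2.2 and 2.6 FPKM in Nrl-/-. Under median-of-ratios scaling both were called lower, at -0.71 for Abca4 and -0.47 for Rp1l1, where the sign of Rp1l1 had turned.

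Of the 4 retinoid and matrix genes, Pitpnm3, a phosphatidylinositol transfer protein, was higher and Nxnl2 lower. Pitpnm3 had 4.2 and 4.9 FPKM in CrxRip/Rip, against 1.3 and 1.6 FPKM in Nrl-/-. Nxnl2, the second thioredoxin-like cone viability factor, had 0.3 and 0.5 FPKM in CrxRip/Rip, against 5.6 and 6.5 FPKM in Nrl-/-. The paralogs Nxnl1 and Nxnl2 thus differed in opposite directions. Impg2, a proteoglycan of the matrix between photoreceptors, had 7.4 and 9.7 FPKM in CrxRip/Rip, against 10.1 and 11.5 FPKM in Nrl-/-. It did not pass the test (-0.31; limma, adjusted p = 0.0702), but did under the authors' scaling (-0.49) and under median-of-ratios scaling (-1.17). Rdh12, a retinol dehydrogenase, had at most 0.5 FPKM in all 4 samples.

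At the photoreceptor synapse Mpp4, a scaffold of the rod and cone terminal, was 7.62-fold lower. It had 0.6 and 0.7 FPKM in CrxRip/Rip, against 5.0 and 4.9 FPKM in Nrl-/-. Slc17a7, the vesicular glutamate transporter of photoreceptors and bipolar cells, had 2.7 and 2.7 FPKM in CrxRip/Rip, against 1.8 and 2.2 FPKM in Nrl-/-. Its call (0.31; limma, adjusted p = 0.00852) ended under the authors' scaling (0.18) and without the first Nrl-/- sample (0.21), and under median-of-ratios scaling it was called lower (-0.37). Lrit2 had 3.2 and 3.4 FPKM in CrxRip/Rip, against 2.0 and 2.3 FPKM in Nrl-/-, and its sign turned under median-of-ratios scaling (-0.24). Lrit1, a leucine-rich repeat protein of the photoreceptor synapse, overlapped at 1.1 and 1.0 FPKM in CrxRip/Rip and 1.1 and 1.1 FPKM in Nrl-/-. It was uncalled as deposited, but was called lower under median-of-ratios scaling (-0.57).

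**Figure D3:**
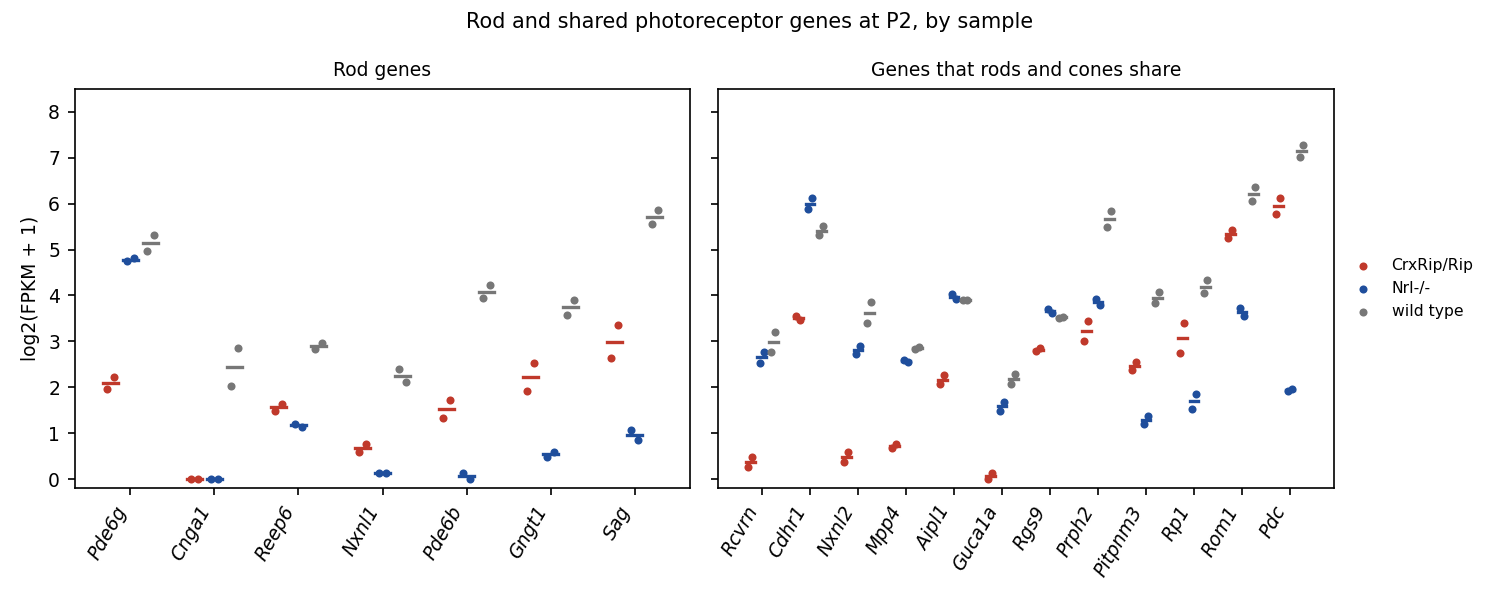
Level in log2(FPKM + 1) of rod genes (left) and of 12 genes that rods and cones share (right) in each P2 sample of CrxRip/Rip, Nrl-/- and wild type; points are samples and bars the mean of 2. Sag, Gngt1, Pde6b, Rp1, Rom1 and Pdc lie higher in CrxRip/Rip than in Nrl-/-, while Pde6g, Rcvrn, Cdhr1, Nxnl2 and Mpp4 lie lower.

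The promoters of genes that differed were read because Crx and Nrl act through short sites near the start of transcription. Of the 46 photoreceptor list genes, 32 had a promoter in RefSeq (GRCm38.p6), and the 200 bases before the start were searched on both strands. The letters searched were GGATTA, the core of the Crx site, and TGCTGA, the core of the Nrl site, and the letters of one core cannot overlap those of the other. The cone opsin and cone transducin genes show promoters of lower genes, Sag, Pde6b and Gngt1 those of higher genes, and Samd7 a gene low in both genotypes. Each line runs 5′ to 3′ toward the start, and capitals mark a core in either orientation.
Opn1sw: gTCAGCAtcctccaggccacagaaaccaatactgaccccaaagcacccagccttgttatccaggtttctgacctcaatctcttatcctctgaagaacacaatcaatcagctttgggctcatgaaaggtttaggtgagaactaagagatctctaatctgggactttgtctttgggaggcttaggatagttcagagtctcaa
Gnat2: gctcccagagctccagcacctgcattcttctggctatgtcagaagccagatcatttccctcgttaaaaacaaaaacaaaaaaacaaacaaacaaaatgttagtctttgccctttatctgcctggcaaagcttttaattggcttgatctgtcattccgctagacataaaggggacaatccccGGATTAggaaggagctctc
Sag: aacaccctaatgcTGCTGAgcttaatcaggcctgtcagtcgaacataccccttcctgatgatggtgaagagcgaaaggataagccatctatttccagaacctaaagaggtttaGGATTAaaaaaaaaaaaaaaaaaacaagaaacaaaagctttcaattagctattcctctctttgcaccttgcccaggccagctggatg
Pde6b: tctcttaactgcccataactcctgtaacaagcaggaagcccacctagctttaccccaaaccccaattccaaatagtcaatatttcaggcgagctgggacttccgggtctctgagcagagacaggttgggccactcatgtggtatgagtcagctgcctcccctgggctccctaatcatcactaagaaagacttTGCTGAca
Gngt1: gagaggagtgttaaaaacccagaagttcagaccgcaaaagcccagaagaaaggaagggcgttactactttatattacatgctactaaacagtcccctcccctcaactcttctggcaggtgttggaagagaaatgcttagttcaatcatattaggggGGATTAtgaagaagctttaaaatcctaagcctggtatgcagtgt
Samd7: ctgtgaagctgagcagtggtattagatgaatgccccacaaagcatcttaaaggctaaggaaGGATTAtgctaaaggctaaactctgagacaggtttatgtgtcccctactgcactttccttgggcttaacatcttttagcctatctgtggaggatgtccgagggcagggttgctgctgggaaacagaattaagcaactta
The Opn1sw window (chr6:29380514-29380713, minus strand) held an Nrl core on its opposite strand at its far end. The Gnat2 window (chr3:108092866-108093065, plus strand) held a Crx core whose first base lay at -19 from the start. The Sag window (chr1:87803480-87803679, plus strand) held both cores, the Nrl core from -187 and the Crx core from -87. The Pde6b window (chr5:108388173-108388372, plus strand) held an Nrl core from -8. In Gngt1 (chr6:3993808-3994007, plus strand) and Samd7 (chr3:30746093-30746292, plus strand) a Crx core began at -44 for Gngt1 and at -139 for Samd7.

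The Crx core was found in 4 of 11 promoters of list genes called higher and in 7 of 16 promoters of list genes called lower. It occurred in 4.98% of all 27025 RefSeq promoters and in 7.69% of the 442 promoters of table genes. The Nrl core was found in 4 of 11 promoters of the higher genes and 4 of 16 of the lower genes, beside 13% of all promoters and 14% of those of table genes. In list genes that were not called, each core was found in 2 of 5 promoters. The Crx core thus stood on both sides of the comparison and in uncalled genes as well. A match is a string of letters and does not show binding.

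Beyond photoreceptors, the table held 4 bipolar cell genes, and 3 of them were called lower in CrxRip/Rip, beside 28.3% of all genes. Cabp5, a calcium-binding protein of bipolar cells, had 0.2 and 0.2 FPKM in CrxRip/Rip, against 2.6 and 2.7 FPKM in Nrl-/-, and 3.6 and 3.1 FPKM in wild type. Lhx4, a homeobox gene of cone bipolar cells and of early cones, had 8.9 and 10.2 FPKM in CrxRip/Rip, against 20.9 and 22.9 FPKM in Nrl-/-, and 8.2 and 8.8 FPKM in wild type. Pcp2, the L7 protein of bipolar cells, had 1.3 and 1.3 FPKM in CrxRip/Rip, against 6.5 and 5.3 FPKM in Nrl-/-, and 1.4 and 1.9 FPKM in wild type. For Lhx4 and Pcp2 it was Nrl-/- that stood above wild type, whereas for Cabp5 it was CrxRip/Rip that stood below it. Trpm1, the channel of ON bipolar cells, split the CrxRip/Rip samples at 0.4 and 3.9 FPKM around the 0.7 and 0.8 FPKM of Nrl-/-. Its difference was -0.32 without the second CrxRip/Rip sample and 1.49, a call, without the first.

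All 3 circadian genes in the table were called lower, beside 28.3% of all genes. Ciart, a repressor of the clock, had 1.1 and 1.1 FPKM in CrxRip/Rip, against 6.7 and 6.4 FPKM in Nrl-/-, and 1.3 and 1.2 FPKM in wild type, a difference of -1.85 ± 0.08 (SE; limma, adjusted p = 1.22e-06). Per2 had 2.0 and 2.0 FPKM in CrxRip/Rip, against 4.7 and 5.5 FPKM in Nrl-/-, and Per1 had 3.6 and 3.2 FPKM in CrxRip/Rip, against 6.1 and 5.3 FPKM in Nrl-/-. CrxRip/Rip stood at the wild-type level for Ciart and Per2, and Nrl-/- lay above all other P2 samples for all 3.

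Markers of dividing and early-born cells were few in the table. Fgf15, a growth factor of retinal progenitors, had 42.0 and 39.0 FPKM in CrxRip/Rip, against 16.9 and 15.5 FPKM in Nrl-/-, and 45.1 and 34.8 FPKM in wild type. Btg2, an antiproliferative p53 target of newly postmitotic cells, had 101.8 and 97.0 FPKM in CrxRip/Rip, against 37.7 and 33.6 FPKM in Nrl-/-, and 74.5 and 82.9 FPKM in wild type. CrxRip/Rip was near wild type for Fgf15 and above every other sample for Btg2. The differences were 1.27 ± 0.18 for Fgf15 and 1.46 ± 0.12 for Btg2 (SE; limma, adjusted p = 0.000184 and 1.6e-05). The Fgf15 call did not hold under median-of-ratios scaling (0.38), nor did those of Ndnf of horizontal cells (0.20) and Pou4f3 of ganglion cells (0.29), which were called higher on the deposited scale at 0.83 and 0.78.

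Stress and injury genes showed no common direction. Trp53inp1, a p53 target, had 17.9 and 19.2 FPKM in CrxRip/Rip, against 26.0 and 29.3 FPKM in Nrl-/-. Jun, an immediate early gene, had 18.8 and 11.1 FPKM in CrxRip/Rip, against 5.0 and 4.9 FPKM in Nrl-/-. Socs3, a feedback inhibitor of cytokine signalling, had 1.9 and 1.2 FPKM in CrxRip/Rip, against 3.2 and 2.9 FPKM in Nrl-/-. Jun was called higher and the others lower (limma, adjusted p = 0.00056 for Jun, 0.000941 for Trp53inp1 and 0.00116 for Socs3). Gfap, the intermediate filament of reactive glia, overlapped at 6.4 and 3.7 FPKM in CrxRip/Rip and 5.3 and 10.7 FPKM in Nrl-/-. It was uncalled as deposited, but was called lower under median-of-ratios scaling (-1.37). Egr1 had 0.7 and 0.7 FPKM in CrxRip/Rip, against 1.1 and 1.0 FPKM in Nrl-/-, and missed the threshold (limma, adjusted p = 0.0643). It was called lower with pseudocounts of 0.1 (-0.52) and 0.5 (-0.37), under the authors' scaling (-0.37), summed-FPKM scaling (-0.34) and median-of-ratios scaling (-0.78), and in the 4 samples alone (-0.27).

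Markers of other retinal cells, and of cells that could travel with the retina, were counted too. No amacrine, Müller glia, microglia or lens gene of the lists was in the table. The table holds only genes past the authors' threshold, so an absent marker does not show whether such cells were present. Of the 15 pigment epithelium genes 2 were, with sums of 5.2 and 6.6 FPKM in CrxRip/Rip, against 4.3 and 5.4 FPKM in Nrl-/-. Tyrp1, a melanin enzyme, was called higher at 3.0 and 4.7 FPKM in CrxRip/Rip, against 2.1 and 2.3 FPKM in Nrl-/-, and lost the call without the second CrxRip/Rip sample (0.32) and under median-of-ratios scaling (-0.11). Rgs5 of pericytes and Hbb-bs of red cells overlapped between the groups, and both were higher in the second CrxRip/Rip sample, at 3.4 against 1.2 FPKM for Rgs5 and 4.9 against 0.9 FPKM for Hbb-bs. Their part in the results was not tested.

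Outside the lists, the genes with the largest differences were taken among those with a mean of at least 5 FPKM in either genotype. Acbd7, an acyl-CoA binding protein, had 5.2 and 6.2 FPKM in CrxRip/Rip, against 0.2 and 0.1 FPKM in Nrl-/-, and 0.7 and 0.5 FPKM in wild type. It was one of the 29 genes in which CrxRip/Rip lay above and Nrl-/- below all other samples. Nhlh1, a basic helix-loop-helix factor of newborn neurons, was another, with 5.3 and 5.4 FPKM in CrxRip/Rip, against 0.8 and 0.4 FPKM in Nrl-/-, and 2.2 and 1.8 FPKM in wild type. The differences were 2.54 ± 0.13 for Acbd7 and 2.00 ± 0.13 for Nhlh1 (SE; limma, adjusted p = 2.64e-06 and 6.43e-06).

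In several genes with large differences the Nrl-/- samples alone lay below all others. Slc16a3, a lactate transporter, had 15.1 and 14.3 FPKM in CrxRip/Rip, against 2.1 and 1.4 FPKM in Nrl-/-, and 21.2 and 15.5 FPKM in wild type. Lrp4, an agrin and Wnt co-receptor, had 14.7 and 18.5 FPKM in CrxRip/Rip, against 2.4 and 2.4 FPKM in Nrl-/-, and 17.3 and 17.8 FPKM in wild type. Ezh2, the methyltransferase of Polycomb repressive complex, had 47.7 and 46.2 FPKM in CrxRip/Rip, against 13.6 and 13.2 FPKM in Nrl-/-, and 46.3 and 44.8 FPKM in wild type. In these 3 genes CrxRip/Rip was at or near wild type. CrxRip/Rip was higher than Nrl-/- by 8.40-fold for Slc16a3, 6.92-fold for Lrp4 and 3.50-fold for Ezh2. Under median-of-ratios scaling, which evens out the low Nrl-/- columns, the differences were 1.85 for Slc16a3, 1.63 for Lrp4 and 0.85 for Ezh2, against 2.52, 2.36 and 1.74 as deposited. Pmepa1, Hddc3 and Ebpl were further genes with Nrl-/- alone below all others, with differences between 1.99 and 2.24. Ano3 was higher at 5.4 and 5.0 FPKM in CrxRip/Rip, against 0.2 and 0.2 FPKM in Nrl-/-, but wild type was split at 4.5 and 0.2 FPKM.

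On the lower side, Cacna1h, a T-type calcium channel, had 8.4 and 8.2 FPKM in CrxRip/Rip, against 30.5 and 33.0 FPKM in Nrl-/-, and 24.7 and 26.6 FPKM in wild type. Ppef2, a photoreceptor phosphatase, had 3.7 and 4.9 FPKM in CrxRip/Rip, against 17.3 and 13.5 FPKM in Nrl-/-, and 15.2 and 15.5 FPKM in wild type. Tafa3, a secreted chemokine-like protein, had 0.0 and 0.1 FPKM in CrxRip/Rip, against 5.9 and 6.3 FPKM in Nrl-/-, and 5.2 and 5.7 FPKM in wild type. In all 3 it was CrxRip/Rip that was below wild type. Nptx1, a neuronal pentraxin, and Zfp385b, a zinc finger gene, followed with differences of -1.57 for Nptx1 and -1.53 for Zfp385b.

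Some genes did not have 1 level in CrxRip/Rip. In 18 genes the CrxRip/Rip samples differed by more than 1 on the log2(FPKM + 1) scale, and in 1 gene the Nrl-/- samples did, while the median gap was 0.15 in CrxRip/Rip and 0.12 in Nrl-/-. Rps3a1, a ribosomal protein gene, had 4.0 and 121.8 FPKM in CrxRip/Rip, against 135.3 and 133.3 FPKM in Nrl-/-. Slc15a2, a peptide transporter, had 0.4 and 36.5 FPKM in CrxRip/Rip and 11.4 and 37.4 FPKM in Nrl-/-. Rpl29 had 1.3 and 17.4 FPKM in CrxRip/Rip, against 35.0 and 30.9 FPKM in Nrl-/-. The table held 8 ribosomal protein genes, mitochondrial ones included. On the deposited scale 1 was called higher, the mitochondrial Mrpl14, and 2 lower, beside 61% higher and 28.3% lower over all genes. Under median-of-ratios scaling 1 was called higher and 7 lower, beside 155 higher and 199 lower of the 566 genes. Ribosomal protein genes have many processed copies, so their FPKM is uncertain where reads could be shared. Rpl29 (limma, adjusted p = 0.0165) and Klhl33 (limma, adjusted p = 0.0414), which had 5.3 and 1.4 FPKM in CrxRip/Rip, against 10.1 and 12.2 FPKM in Nrl-/-, lost their calls without either Nrl-/- sample. Without the 18 genes, 345 were called higher and 156 lower.

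**Figure D4:**
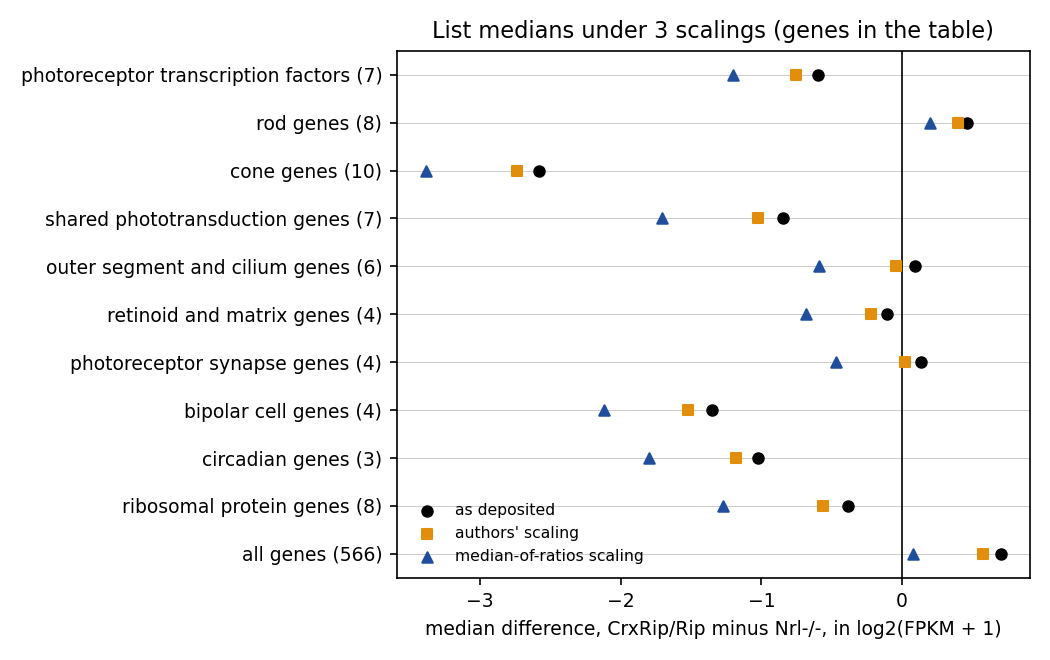
Median difference, CrxRip/Rip minus Nrl-/-, in log2(FPKM + 1) for each list with at least 3 genes in the table (number in brackets) and for all 566 genes, on the deposited scale (circles), the authors' scaling (squares) and the median-of-ratios scaling (triangles). The median of all genes sits at 0.70 as deposited and at 0.08 under median-of-ratios scaling, and the cone genes stay furthest below 0 on each scale, with -2.58 as deposited.

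At P21 the table held 1497 genes, and a separate fit called 317 higher in CrxRip/Rip, which is 21.2%, and 683 lower, which is 45.6%. The share of higher calls was thus smaller than that of lower calls, the reverse of P2, in a table with other genes. In all, 198 genes stood in both tables, and across these genes the differences at the ages had a Pearson correlation of 0.65 and a Spearman correlation of 0.65; genes are not independent replicates. Of these, 77 were called lower at both ages and 27 higher at both. A further 27 were called higher at P2 and lower at P21, and 5 were called lower at P2 and higher at P21, namely Xk, Gnrh1, Gsg1l, Samsn1 and Arid3c, which are named because they are few. The difference between the ages was not tested.

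Both rod factors were near 0 in both genotypes at P21. Nrl had 0.1 and 0.2 FPKM in CrxRip/Rip and 0.2 and 0.2 FPKM in Nrl-/-, beside 466.1 and 427.6 FPKM in wild type. Nr2e3 had 0.0 and 0.0 FPKM in CrxRip/Rip and 0.0 and 0.2 FPKM in Nrl-/-, beside 223.7 and 198.8 FPKM in wild type. Neither passed the test at P21 (limma, adjusted p = 0.719 for Nrl and 0.481 for Nr2e3). At P21 both genes were at or under 0.2 FPKM in all 4 samples, while at P2 the CrxRip/Rip samples had held both RNAs.

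Several rod and shared genes called higher at P2 were called lower at P21, among them Sag and Pdc, while Reep6 and Pitpnm3 did not pass the test at P21. Sag had 118.4 and 104.0 FPKM in CrxRip/Rip, against 687.4 and 753.0 FPKM in Nrl-/-, and 1394.0 and 1302.6 FPKM in wild type at P21. Pdc had 172.2 and 220.2 FPKM in CrxRip/Rip, against 495.3 and 580.1 FPKM in Nrl-/-, and 1210.3 and 1380.1 FPKM in wild type. Both genes had more RNA at P21 than at P2 in CrxRip/Rip by the deposited values, which come from tables normalized separately. Opn1sw had 0.2 and 0.2 FPKM in CrxRip/Rip at P21, against 2501.0 and 2298.6 FPKM in Nrl-/-, and 164.5 and 141.0 FPKM in wild type. Acbd7 remained higher, with 28.8 and 25.6 FPKM in CrxRip/Rip, against 0.9 and 1.1 FPKM in Nrl-/-, at P21.

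**Figure D5:**
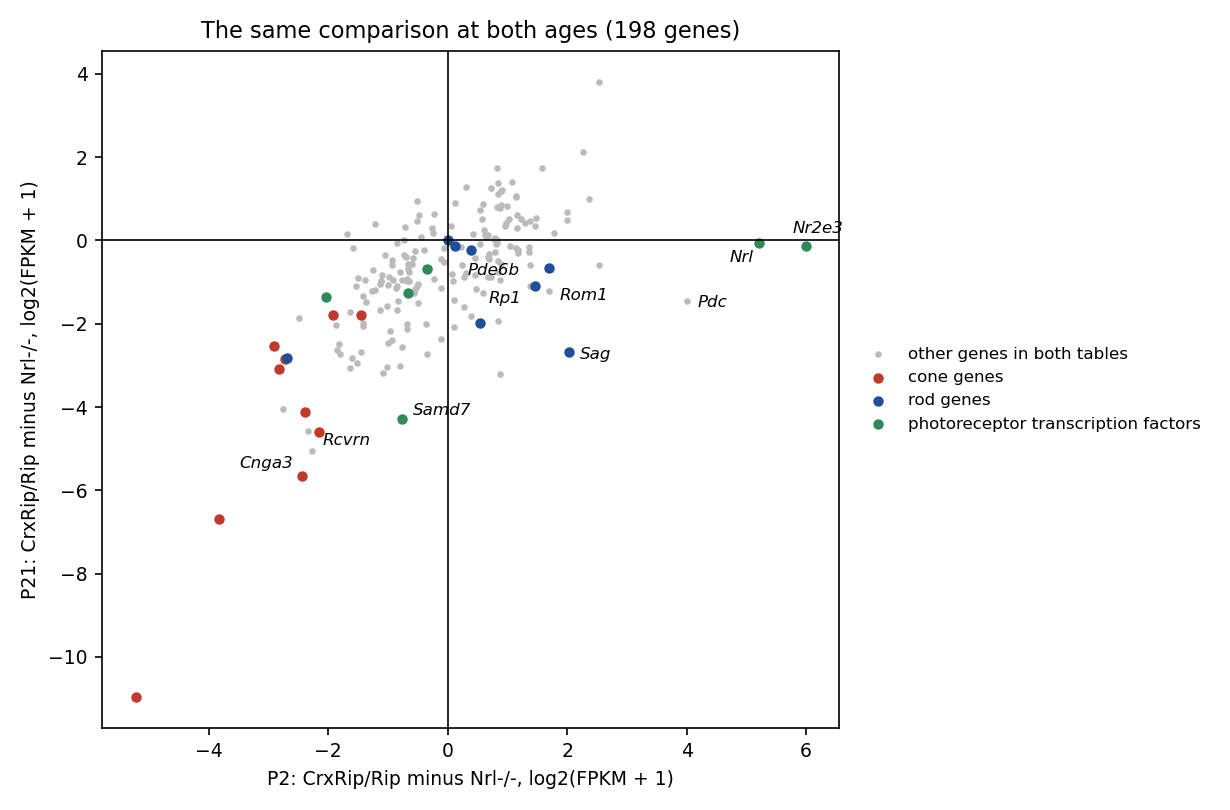
Difference CrxRip/Rip minus Nrl-/- in log2(FPKM + 1) at P21 (vertical) against the same difference at P2 (horizontal) for the 198 genes in both tables. Cone genes lie at the lower left, Nrl and Nr2e3 lie far to the right near 0 at P21, and Sag, Pdc, Rom1, Rp1 and Pde6b lie to the right of 0 and below it.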

How the data were processed

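Whole-retina RNA of 5 genotypes at 2 ages was measured in 20 samples, 2 per genotype and age, grouped by their titles. The 4 P2 samples of CrxRip/Rip and Nrl-/- were compared, with the 6 other P2 samples in the same fit. The deposited FPKM have 1 decimal. They hold no read counts, so depth is unknown and no counting interval was computed. The authors deposited an adjusted p-value and a log2 fold change for each of their comparisons; DESeq is named in the submitters' processing notes. For the aligner, the build and the annotation no source used here gives a name. Every gene of the P2 table had passed the authors' limits in some comparison of theirs. The limits were 2 FPKM on average, a log2 fold change of 1 in size and an adjusted p of 0.05. The genes of the P21 table were not checked in this way.

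limma 3.58.1 (R 4.3.3) was fitted to log2(FPKM + 1) of the 10 P2 samples, with 1 term per genotype, a variance trend and empirical Bayes moderation, giving 5 residual and 2.95 prior degrees of freedom. Two-sided p-values received Benjamini-Hochberg adjustment across the 566 genes. P21 was fitted alone in the same way. The fit was tested on simulated data. With 2 samples a genotype, the smallest p of an exact permutation test is 0.33. Same-numbered samples deviated with correlations between -0.24 and 0.33, and 0.18 between CrxRip/Rip and Nrl-/-, so numbers were not used as pairs. Symbols follow RefSeq for 563 of 566 genes, and 34 were updated.

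Genes were named by a rule: Nrl, all photoreceptor list members, the 10 largest rises and falls outside them, up to 4 called and 2 uncalled members of other lists, and the 5 most abundant uncalled genes. A subset is given, and a few genes are not reported here. The members and lists were chosen with earlier results of these data known. Alternatives were other pseudocounts, 3 scalings, a filter, no trend, the 4 samples alone, the replicate block, each sample left out and, chosen after seeing the data, the removal of genes with discordant samples.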

Additional observations from a re-analysis of the deposited data

Results flagged for a closer look

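10 named genes were called in opposite directions at P2 and P21, with every CrxRip/Rip sample above both Nrl-/- samples at P2 and below both at P21. Of the P2 calls, those of Nxnl1 and Lrit2 were lost under median-of-ratios scaling, and Slc17a7 was called lower there (-0.37) and was uncalled under the authors' scaling (0.18). Over the 198 genes in both tables, 27 were called higher at P2 and lower at P21, and 5 the reverse. At P2 the groups did not overlap in 533 of the 566 genes, and the share without overlap at P21 was not counted. The difference between the ages was not tested, and the ages come from tables normalized separately. The P21 differences, CrxRip/Rip minus Nrl-/- in log2(FPKM + 1), were -2.69 for Sag, -1.46 for Pdc, -1.22 for Rom1, -1.10 for Rp1, -1.09 for Pde6b, -1.98 for Nxnl1 and -0.67 for Gngt1 among rod and shared genes. They were -0.77 for Slc17a7 and -0.42 for Lrit2 at the synapse, and -0.60 for the lactate transporter Slc16a3.

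Rom1 had 74.1 and 89.1 FPKM in CrxRip/Rip at P21, against 204.0 and 178.3 FPKM in Nrl-/-, and 879.8 and 818.3 FPKM in wild type. Pde6b had 8.0 and 5.6 FPKM in CrxRip/Rip at P21, against 15.5 and 15.3 FPKM in Nrl-/-, and 554.7 and 524.0 FPKM in wild type. Gngt1 had 137.7 and 149.7 FPKM in CrxRip/Rip at P21, against 231.7 and 226.6 FPKM in Nrl-/-, and 516.1 and 483.1 FPKM in wild type. In all 3 genes both mutants were below wild type at P21. Groups of 2 samples are too small for a check of single outlying samples.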

How the results depend on the processing

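The totals of 345 genes called higher and 160 lower were 327 to 349 and 145 to 160 with 1 sample left out (476 to 508 in all), and the median over all genes, 0.70, was 0.67 to 0.78. Where a left-out sample leaves a genotype with 1, that sample is assumed to vary like the others. The median was 0.99 and 0.85 with pseudocounts of 0.1 and 0.5, 0.58 under the authors' scaling and 0.08 under median-of-ratios scaling, which called 155 genes higher. Of the rod genes 5 were called higher, but 3 under median-of-ratios scaling, 2 among genes with a mean of at least 2 FPKM, where fewer were tested, and 3 to 5 with 1 sample left out. The cause of the scaling shift was not tested.

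These signs turned. Under the authors' scaling Rgs5 was -0.09 and Rplp0 -0.12, and under summed-FPKM scaling both were -0.04. Under median-of-ratios scaling Reep6 was -0.19, Rp1l1 -0.47, Rdh12 -0.19, Slc17a7 -0.37, Lrit2 -0.24, Tyrp1 -0.11, Rgs5 -0.62, Rplp0 -0.86 and Sparc -0.59. With 1 sample left out Abca4 ran between -0.21 and 0.09, Hbb-bs between -0.93 and 0.70, Trpm1 between -0.32 and 1.49, Rgs5 between -0.46 and 0.54 and Rplp0 between -0.11 and 0.24. Without a variance trend no named gene changed its call.

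With the replicate number as a block 345 genes were called higher and 160 lower, 505 in all as in the fit without it. The block ended the call of Klhl33 and gave one to Impg2, and changed the call of no other named gene. The numbers do not show a pairing. FPKM carry no depth, and values under 1 FPKM are limited by the rounding.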

Other observations

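Outside the comparisons above, 11 genes had CrxRip/Rip alone above all 8 other P2 samples among those called higher. The following genes were chosen after their values were seen. Chgb, which encodes chromogranin B of secretory granules, had 166.7 and 167.0 FPKM in CrxRip/Rip, against 102.5 and 85.3 FPKM in Nrl-/-, and 73.3 and 84.4 FPKM in wild type. Slitrk6, a transmembrane protein of neurons, had 14.5 and 16.7 FPKM in CrxRip/Rip, against 4.5 and 4.6 FPKM in Nrl-/-, and 4.7 and 4.0 FPKM in wild type. At P21 Chgb had 644.9 and 680.2 FPKM in CrxRip/Rip, against 197.8 and 198.5 FPKM in Nrl-/-, and Slitrk6 differed by 1.75 on the log2(FPKM + 1) scale. Both were called higher at both ages, although the P2 difference of Chgb was -0.10 and uncalled under median-of-ratios scaling.

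The metallothionein genes Mt1 and Mt2, whose proteins bind zinc and copper, were higher in Nrl-/- than in CrxRip/Rip at P2. Mt2 had 0.8 and 0.7 FPKM in CrxRip/Rip, against 4.5 and 4.8 FPKM in Nrl-/-, and Mt1 had 4.4 and 4.0 FPKM in CrxRip/Rip, against 7.7 and 9.0 FPKM in Nrl-/-. Both were called lower in CrxRip/Rip at P2, and at P21 neither passed the test. Slc7a11, the cystine transporter, had 3.9 and 4.2 FPKM in CrxRip/Rip, against 0.5 and 0.4 FPKM in Nrl-/-, 0.6 and 0.5 FPKM in Crx-/-, 3.5 and 3.8 FPKM in CrxRip/+ and 3.8 and 3.2 FPKM in wild type. It was thus low in both null genotypes and not in those that carry the Rip allele.

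The table held 28 numbered Zfp zinc finger genes, of which 24 were called higher in CrxRip/Rip and 3 lower, beside 61% higher and 28.3% lower over all genes. Under median-of-ratios scaling 14 were called higher and 5 lower, beside 155 higher and 199 lower of the 566 genes. Of 14 genes within 10 Mb of Nrl on chromosome 14 (RefSeq, GRCm38.p6), 10 were called higher and 3 lower, with a median difference of 0.71, which is near the 61%, 28.3% and 0.70 of the whole table.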
